A study of Mus musculus with 24 samples.

Results

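Cpt1a, Cpt2, Ehhadh, Acadm, Acadl, Pdk4, Vnn1 and Fgf21 are 8 genes with which the liver takes up and burns fatty acids and signals the fasted state. They were picked by name from the 52636 genes counted in each library, and all 8 passed the filter on low counts that left 15490 genes for testing. The libraries hold RNA that sedimented with polysomes, the strings of ribosomes on a message, from liver of C57BL/6 mice aged 5 months. Mice with free access to food are called AL here. In the restricted mice, called CR, calories were cut by 30% from the age of 2 months, for 3 months. Liver was collected at zeitgeber time (ZT) 2, 6, 10, 14, 18 and 22 h, and each diet has 2 libraries at each time, which makes 12 groups and 24 libraries. When the restricted mice were fed, and the sex of the animals, the sources used here do not give. No genotype, transgene or further agent is named for either diet.

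In a fasting liver, long-chain fatty acids released from fat tissue cross into mitochondria as carnitine esters and are shortened by β-oxidation, while pyruvate dehydrogenase is held back so that glucose carbon is spared. Much of the acetyl-CoA formed leaves the liver as ketone bodies. The nuclear receptor PPARα, which is activated by fatty acids, drives many of the genes of this programme, and the hormone FGF21 is one of its secreted products.

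The genes lie on 8 chromosomes of the mouse genome (GRCm38, gene models of GENCODE M21). Cpt1a (ENSMUSG00000024900.4, chromosome 19, 3322334 to 3385733, plus strand) encodes the liver carnitine palmitoyltransferase of the outer mitochondrial membrane, the gate for long-chain fatty acids that malonyl-CoA closes. Cpt2 (ENSMUSG00000028607.16, chromosome 4, 107903981 to 107923610, minus strand) encodes its partner at the inner membrane, which turns the carnitine ester back into acyl-CoA. Acadm (ENSMUSG00000062908.12, chromosome 3, 153922357 to 153944632, minus strand) and Acadl (ENSMUSG00000026003.5, chromosome 1, 66830839 to 66863277, minus strand) encode the medium-chain and long-chain acyl-CoA dehydrogenases of the first step of mitochondrial β-oxidation. Ehhadh (ENSMUSG00000022853.6, chromosome 16, 21761287 to 21787807, minus strand) encodes the bifunctional hydratase and dehydrogenase of peroxisomal β-oxidation. Pdk4 (ENSMUSG00000019577.6, chromosome 6, 5483351 to 5496309, minus strand) encodes a kinase that switches pyruvate dehydrogenase off. Vnn1 (ENSMUSG00000037440.8, chromosome 10, 23894688 to 23905343, plus strand) encodes a pantetheinase, which frees pantothenate, the vitamin from which coenzyme A is made. Fgf21 (ENSMUSG00000030827.5, chromosome 7, 45613886 to 45615490, minus strand) encodes the fasting and stress hormone. None of the 8 shares exon sequence with an overlapping gene. Words of 50 bases shared with other genes' transcripts made up 2.04% of Acadm, 1.40% of Pdk4 and 0.851% of Cpt1a, and there were 0 in the other 5 genes.

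Promoter sequences were found for 7 of the 8 genes in RefSeq (GRCm38.p6), and none for Vnn1. The 250 bases before the start of 4 genes are shown, 5′ to 3′ on the gene's strand. Pdk4, Ehhadh and Acadl are shown because their average difference between diets was called under all 36 alternatives tried, and Fgf21 because it is the 1 gene of the 7 in which a searched motif was found. Capitals mark the motifs.
Pdk4 promoter (chr6:5496279-5496528, minus strand): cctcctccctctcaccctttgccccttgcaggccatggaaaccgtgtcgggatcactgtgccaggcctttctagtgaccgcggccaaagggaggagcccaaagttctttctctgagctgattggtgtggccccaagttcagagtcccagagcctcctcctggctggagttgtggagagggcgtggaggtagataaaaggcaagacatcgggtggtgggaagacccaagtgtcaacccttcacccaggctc
Ehhadh promoter (chr16:21787835-21788084, minus strand): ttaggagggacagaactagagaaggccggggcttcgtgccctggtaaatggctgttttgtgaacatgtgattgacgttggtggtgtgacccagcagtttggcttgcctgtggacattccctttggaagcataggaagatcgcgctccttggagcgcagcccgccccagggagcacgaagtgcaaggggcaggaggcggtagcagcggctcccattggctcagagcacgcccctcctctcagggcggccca
Acadl promoter (chr1:66863310-66863559, minus strand): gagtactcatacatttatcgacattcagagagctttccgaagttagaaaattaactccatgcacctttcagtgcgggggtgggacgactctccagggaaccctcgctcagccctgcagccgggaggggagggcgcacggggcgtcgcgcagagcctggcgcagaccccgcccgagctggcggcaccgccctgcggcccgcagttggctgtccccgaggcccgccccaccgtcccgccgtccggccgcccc
Fgf21 promoter (chr7:45615491-45615740, minus strand): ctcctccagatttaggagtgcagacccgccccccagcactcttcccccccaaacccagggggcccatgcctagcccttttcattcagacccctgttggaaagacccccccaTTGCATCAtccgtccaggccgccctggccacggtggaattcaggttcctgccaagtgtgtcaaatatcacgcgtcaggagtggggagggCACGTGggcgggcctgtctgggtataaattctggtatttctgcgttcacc

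The search used 5 motifs on both strands. They were the direct repeat to which PPARα binds with its partner RXR (AGGTCA in 2 copies spaced by 1 base, with up to 2 mismatches), the E-box CACGTG bound by clock factors, TGATGCAA of the ATF4 response, the cyclic AMP element TGACGTCA and TTATGTAA of the D-box. In Fgf21, CACGTG begins 50 bases before the start, and TGATGCAA lies 139 bases before it on the opposite strand, where the printed strand reads TTGCATCA. The search, in the 7 genes and in all 32544 promoters, also covered a short stretch after the start that is not printed. Of the 32544 promoters, 7.17% hold CACGTG and 0.867% hold TGATGCAA. The direct repeat is found in 3.87%, TGACGTCA in 1.8% and TTATGTAA in 0.931%, and none of these 3 was found in the 7 promoters. CACGTG is a palindrome and overlaps no other hit.

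Libraries held 13.8 to 60.8 M counted reads (M, mega; median 29.5), of which features that collect ribosomal RNA took 1.02% to 62.2%. Hepatocyte markers (6 of 6 detected, among them Alb) summed to 34128 to 73434 CPM (counts per mega counts, with the library size scaled by its TMM factor) in AL and 41047 to 91572 in CR, and they are far above every other cell type's list. Some libraries stood apart. In CR ZT6 2 and CR ZT18 2 the sum of 4 male-biased liver genes (Elovl3, Cyp7b1, Hsd3b5 and Slco1a1, chosen after the data were seen) was 396 and 449 CPM, against 27.0 to 65.1 CPM in the other 10 CR libraries and 389 to 1331 CPM in AL. The acute phase list (5 of 5 detected) reached 28041 CPM in AL ZT22 2C and 2197 CPM in AL ZT10 1, and its median was 147 CPM in AL and 102 CPM in CR. Striated muscle markers (6 of 6 detected) summed to 442 and 315 CPM in both CR ZT18 libraries and to at most 68.0 CPM in the other 22. The labels do not say that the libraries of a group come from separate animals, so the p-values measure the spread between libraries, which may be technical. In bulk liver, fewer cells of a type and less RNA per cell cannot be told apart, nor can the amount of a message and its loading onto polysomes, since total RNA was not analysed here.

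Compared per length, the enzymes of β-oxidation and Cpt2 had the highest levels of the 8 genes and Fgf21 the lowest. Over the 24 libraries the level per kilobase of exons was 87.2 ± 29.9 CPM per kb (SD) for Acadl, 83.6 ± 45.5 for Cpt2, 67.7 ± 27.5 for Acadm, 43.2 ± 29.2 for Ehhadh and 11.3 ± 7.79 for Cpt1a. The lowest levels were 3.96 ± 2.51 CPM per kb for Vnn1, 2.53 ± 2.22 for Pdk4 and 0.97 ± 0.96 for Fgf21. Neighbours in this order were not always apart. Acadl lay above Cpt2 in 15 of 24 libraries and Cpt2 above Acadm in 15, and these 3 differed by less than their spread. Acadm lay above Ehhadh in 22 of 24 libraries, and Ehhadh above Cpt1a and Cpt1a above Vnn1 in 24 of 24. Vnn1 exceeded Pdk4 in 15 libraries (10 in AL and 5 in CR) and Pdk4 exceeded Fgf21 in 17 (6 in AL and 11 in CR). With the length of the longest transcript in place of all exons, Acadm moved to the first place at 129 CPM per kb and Cpt1a rose to 20.0.

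**Figure D1:**
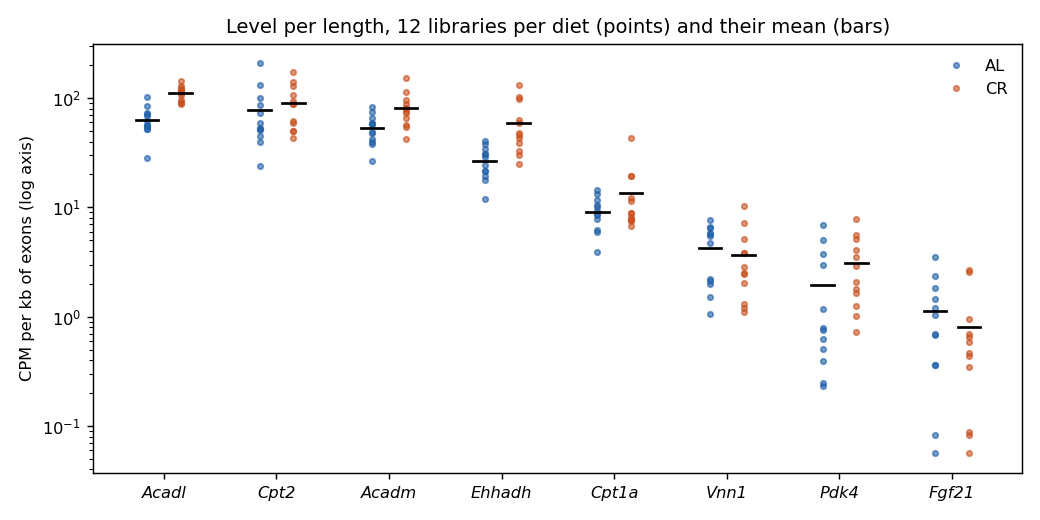
Level of each gene per length (vertical log axis, CPM per kb of exons), with the 12 AL libraries in blue, the 12 CR libraries in orange and bars at the mean of each diet. The β-oxidation enzymes and Cpt2 sit highest, with Acadl at 63.4 CPM per kb in AL and 111 in CR, and Fgf21 sits lowest at 1.14 and 0.80.

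Averaged over the 6 time points, 4 of the 8 genes were higher in CR, namely Pdk4, Ehhadh, Acadl and Acadm, and none was lower. Over all 15490 tested genes 12.7% were called on this average and 5.6% were called higher in CR. The calls come from quasi-likelihood tests in edgeR, with p-values adjusted by Benjamini-Hochberg over all tested genes and a threshold of 0.05, in 1 fit of the 24 libraries with a mean per group. Log2 differences below are CR minus AL, ± SE. DESeq2 and limma-trend each called 4 of the 8 genes as well, and 5 of the 8 had an unadjusted p under 0.05 by edgeR. Of the 15490 genes, DESeq2 called 2510 and limma-trend 1918, and 4115 had an unadjusted p under 0.05 by edgeR. The median difference of the 15490 genes was -0.02.

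Ehhadh, the peroxisomal enzyme, stood higher in CR at every time point. Its level in AL was 120 and 113 CPM at ZT2, 90.9 and 35.6 at ZT6, 91.5 and 86.8 at ZT10, 57.7 and 53.6 at ZT14, 63.8 and 64.0 at ZT18, and 73.3 and 101 at ZT22. In CR it was 186 and 296 CPM at ZT2, 128 and 390 at ZT6, 98.2 and 302 at ZT10, 143 and 115 at ZT14, 89.1 and 74.8 at ZT18, and 137 and 177 at ZT22. Both CR libraries lay above both AL libraries at 6 of 6 time points, which held for 0.465% of all tested genes, although the ranges of the diets overlap when time is ignored. The mean was 79.3 ± 25.5 CPM in AL and 178 ± 99.3 CPM in CR (SD, n = 12 each). On the diet average Ehhadh was higher in CR by 1.11 ± 0.20 (adjusted p = 0.000716 by edgeR). The largest single difference, at ZT6 (2.03 ± 0.51), was not called (adjusted p = 0.0981 by edgeR), and DESeq2 called it at 0.00426. Without CR ZT6 2 and CR ZT18 2 it was 1.01.

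Acadl was also higher in CR, by like amounts at most time points. In AL it measured 111 and 104 CPM at ZT2, 124 and 142 at ZT6, 148 and 115 at ZT10, 105 and 137 at ZT14, 204 and 112 at ZT18, and 56.6 and 168 at ZT22. In CR it measured 182 and 191 CPM at ZT2, 236 and 259 at ZT6, 227 and 289 at ZT10, 224 and 249 at ZT14, 237 and 177 at ZT18, and 215 and 186 at ZT22. The CR pair lay above the AL pair at 5 of 6 time points, with an overlap at ZT18. The diet means were 127 ± 36.9 CPM in AL and 223 ± 34.4 CPM in CR (SD, n = 12 each), and the difference was 0.81 ± 0.16 (adjusted p = 0.00158 by edgeR). Its differences at the single time points ran from 0.39 at ZT18 to 0.98 at ZT10, and its group means varied over the day by no more than 1.47-fold in AL and 1.38-fold in CR.

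Acadm, the medium-chain enzyme, was higher in CR by 0.60 ± 0.19 on the diet average (adjusted p = 0.0449 by edgeR), a call close to the threshold. In AL the 12 libraries ran from 103 to 325 CPM with a median of 209, and in CR from 166 to 600 CPM with a median of 308. The highest library was CR ZT6 2, and the lowest AL ZT22 2C. The CR pair exceeded the AL pair at 2 of 6 time points, ZT2 and ZT14. The share of all tested genes with gaps at 2 time points is not reported here. The call was lost in 19 of 36 alternatives, 15 of them among the 24 that leave out 1 library, with adjusted p up to 0.136 by edgeR without AL ZT10 1 and AL ZT22 2C and log2 differences of 0.48 to 0.73 throughout. Leaving out 1 library, the call was kept without AL ZT2 1, AL ZT6 1, AL ZT14 2, AL ZT18 1, CR ZT6 1, CR ZT22 1, CR ZT10 1, AL ZT22 2d or CR ZT14 2, and lost without any other.

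The carnitine palmitoyltransferases did not pass the test on the diet average. Cpt1a measured 70.1 ± 23.0 CPM in AL and 103 ± 79.4 CPM in CR (SD, n = 12 each), a difference of 0.39 ± 0.18 (adjusted p = 0.155 by edgeR). Cpt2 measured 184 ± 121 CPM in AL and 215 ± 98.1 CPM in CR, a difference of 0.32 ± 0.18 (adjusted p = 0.276 by edgeR). For Cpt2 the widest gap was at ZT22, with 57.5 and 127 CPM in AL and 253 and 211 CPM in CR (1.33 ± 0.45, adjusted p = 0.177 by edgeR). Libraries of 1 group could differ widely in Cpt2, as in CR ZT6 with 141 and 414 CPM and AL ZT6 with 496 and 242 CPM.

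**Figure D2:**
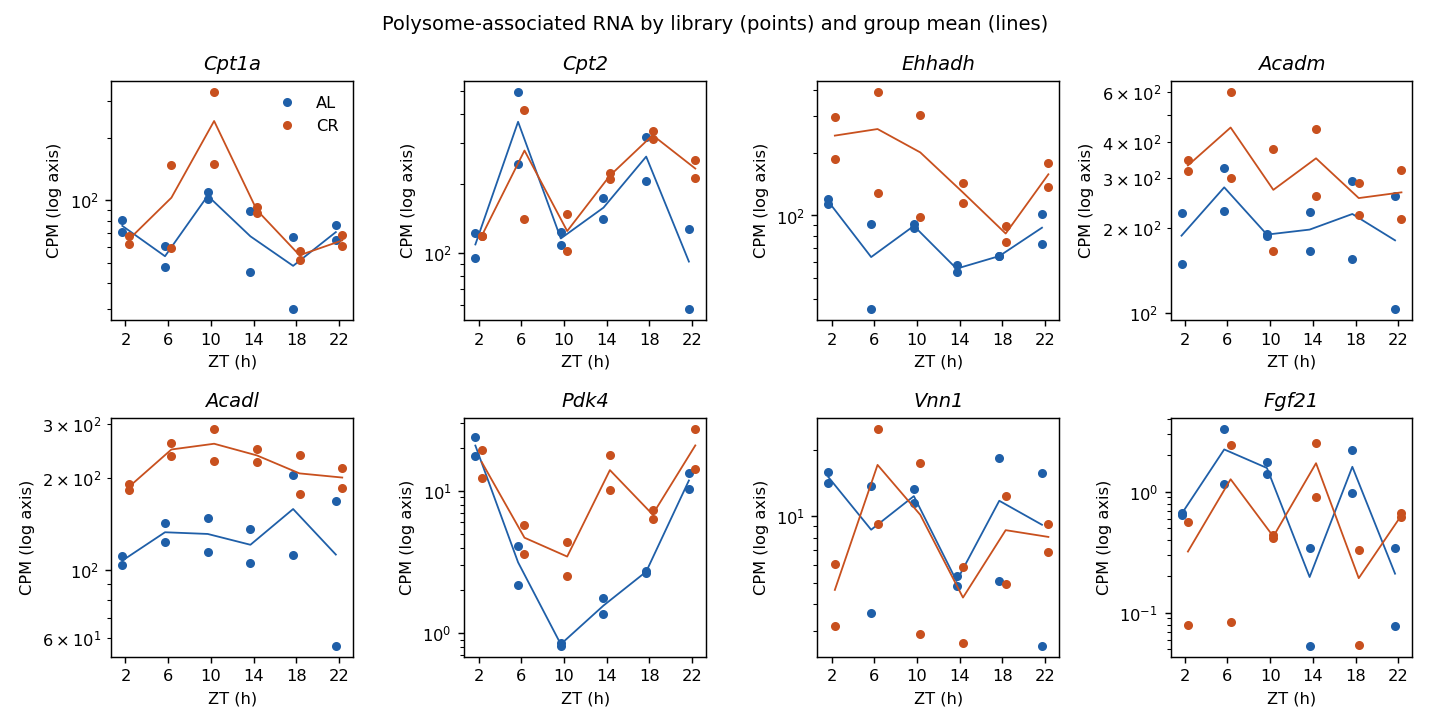
CPM of the 8 genes (vertical log axes) against zeitgeber time in hours, with points for libraries, lines through the means of the 2 libraries of a group, AL in blue and CR in orange. Ehhadh and Acadl run higher in CR through the day, while the AL line of Pdk4 drops to 0.84 CPM at ZT10 and the CR line to 3.46 CPM.

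Of the 8 genes, Pdk4 had the largest called difference between diets and the largest fold over the day in AL. There it was high at the start of the light phase, with 24.1 and 17.6 CPM at ZT2, and fell to 4.12 and 2.17 at ZT6 and 0.81 and 0.86 at ZT10. It stayed low at 1.76 and 1.37 CPM at ZT14 and 2.66 and 2.75 CPM at ZT18, and was 13.3 and 10.4 CPM at ZT22. In CR it was 19.5 and 12.4 CPM at ZT2, 3.60 and 5.78 at ZT6, 2.54 and 4.37 at ZT10, 17.9 and 10.1 at ZT14, 7.34 and 6.31 at ZT18, and 14.3 and 27.4 at ZT22. The diets overlapped at ZT2 and ZT6, and from ZT10 to ZT22 both CR libraries lay above both AL libraries. A gap of this kind at 4 or more of 6 time points was found in 3 of the 8 genes (Ehhadh, Acadl, Pdk4) and in 5.8% of all tested genes.

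The diet difference of Pdk4 was 1.25 ± 0.18 on average (adjusted p = 4.00e-05 by edgeR), and it was called at ZT14 (3.14 ± 0.47, adjusted p = 0.00131) and at ZT10 (2.03 ± 0.45, adjusted p = 0.0291). These were the only 2 calls among the 48 tests of 8 genes at 6 time points. Genes called among all tested made up 0.562% at ZT2, 0.387% at ZT6, 0.742% at ZT10, 1.7% at ZT14, 0.562% at ZT18 and 0.936% at ZT22. At ZT2 the difference was -0.39 ± 0.41, at ZT6 0.56 ± 0.43, at ZT18 1.33 ± 0.43 (adjusted p = 0.216 by edgeR) and at ZT22 0.82 ± 0.42. The 2 CR libraries at ZT18 are those with the most muscle markers, a tissue that also expresses Pdk4, and the part of these markers in the ZT18 value was not tested. The call at ZT14 was kept in all 35 alternatives. The call at ZT10 was lost in 5, with adjusted p of 0.267 without AL ZT10 1, 0.272 without AL ZT10 2, 0.113 without CR ZT10 2, 0.352 without AL ZT10 1 and AL ZT22 2C, and 0.200 without a composition factor, all by edgeR, and a log2 difference of at least 1.58 in each.

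The interaction of diet and time called none of the 8 genes and none of all tested genes (0%), with 1337 genes at an unadjusted p under 0.05. Among the 8, Pdk4 (unadjusted p = 0.000260, adjusted 0.289 by edgeR) and Fgf21 (unadjusted p = 0.00992, adjusted 0.513) were under 0.05 unadjusted. DESeq2 called 1 of the 8, Pdk4 at an adjusted p of 0.00109, and limma-trend called 0. Over all tested genes, DESeq2 called 189 and limma-trend 0.

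**Figure D3:**
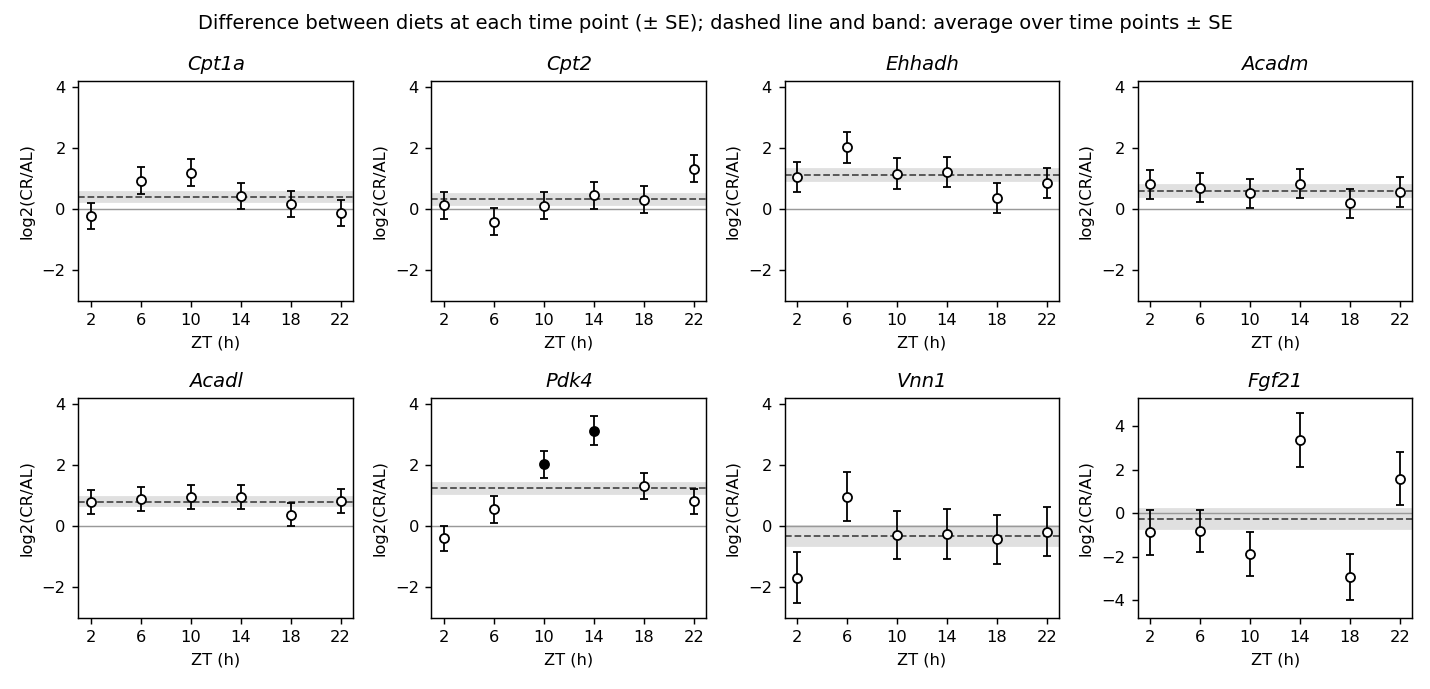
Log2 difference between diets (vertical axis, CR over AL, ± SE) at each zeitgeber time in hours for each gene, with filled points for calls at an adjusted p under 0.05 by edgeR, and the average over time points with its SE as a dashed line and grey band. Filled points appear for Pdk4 at ZT10 (2.03) and ZT14 (3.14), and the points of Acadl stay between 0.39 and 0.98.

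Daily rhythms were fitted as a cosine and sine of a 24 h period for each diet, with the amplitude as log2 units from mean to peak. In AL, Pdk4 was the 1 of the 8 genes called rhythmic, with an amplitude of 2.22 and a peak at ZT 0.17 h (adjusted p = 0.000307 by edgeR), and the call held in all 35 alternatives. Its group means differed 24.9-fold between ZT2 and ZT10. Of all tested genes, 0.42% were called rhythmic in AL. In CR, Cpt1a was the 1 gene called, with an amplitude of 0.90 and a peak at ZT 9.45 h (adjusted p = 0.0330 by edgeR), where 1.94% of all tested genes were called.

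Cpt1a in CR was 67.5 and 62.0 CPM at ZT2, 58.8 and 147 at ZT6, 149 and 331 at ZT10, 86.5 and 93.1 at ZT14, 51.7 and 57.3 at ZT18, and 60.2 and 68.1 at ZT22. Both ZT10 libraries were the highest of the 12, with ZT6 2 close to the lower of them. In AL it was 109 and 101 CPM at ZT10, also the highest pair, and 30.0 to 88.8 CPM in the other 10 libraries (amplitude 0.24, adjusted p = 0.844 by edgeR). The CR call was lost in 10 of 35 alternatives, 7 of them among those that leave out 1 library. The adjusted p was 0.0652 and 0.0602 without CR ZT2 1 or 2, 0.135 without CR ZT10 2 and 0.0534 without CR ZT14 2. It was 0.0767 and 0.0666 without CR ZT18 1 or 2, 0.0606 without CR ZT22 1 and 0.0722 without CR ZT6 2 and CR ZT18 2, all by edgeR. Without a composition factor it was 0.260 by edgeR, and limma-trend gave 0.0880. Without CR ZT10 2 the amplitude was 0.60.

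Pdk4 in CR had an amplitude of 1.01 with a peak at ZT 21.03 h (adjusted p = 0.127 by edgeR), and its group means differed 6.04-fold between ZT22 and ZT10. Ehhadh in CR had an amplitude of 0.77 with a peak at ZT 5.20 h (adjusted p = 0.112 by edgeR). DESeq2 called 3 of the 8 genes rhythmic in CR, Cpt1a, Pdk4 and Ehhadh, and limma-trend called 0. Over all tested genes, DESeq2 also called more than the 301 called by edgeR, and limma-trend called slightly fewer. The rise among the 8 with DESeq2 is thus not particular to them. A test of the difference in rhythm between diets called none of the 8 and none of all tested genes (0%), with 1005 genes and, of the 8, Pdk4 (unadjusted p = 0.000225, adjusted 0.550 by edgeR) under 0.05 unadjusted. DESeq2 called Pdk4 at an adjusted p of 0.0412, and limma-trend called 0. Over all tested genes, DESeq2 called 6 and limma-trend 0.

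Vnn1 was read at low and scattered levels. It measured 10.3 ± 5.63 CPM in AL and 8.81 ± 6.65 CPM in CR (SD, n = 12 each), and the average difference was -0.31 ± 0.33 (adjusted p = 0.611 by edgeR). At ZT2 it was 14.2 and 15.9 CPM in AL and 3.18 and 6.08 CPM in CR, the 1 time point without overlap (-1.68 ± 0.82, adjusted p = 0.676 by edgeR). The share of all tested genes with a gap at 1 time point is not reported here. The highest library of all was CR ZT6 2 at 25.0 CPM, beside 9.21 CPM in its partner. Libraries of 1 group differed by up to 6.09-fold in AL and 5.95-fold in CR.

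Fgf21 was close to the limit of detection and changed sign between time points. The AL counts were 26 and 32 at ZT2, 121 and 18 at ZT6, 99 and 60 at ZT10, 1 and 3 at ZT14, 47 and 44 at ZT18, and 1 and 4 at ZT22. The CR counts were 1 and 16 at ZT2, 1 and 37 at ZT6, 33 and 10 at ZT10, 78 and 26 at ZT14, 2 and 28 at ZT18, and 46 and 19 at ZT22. In 6 libraries the gene had 3 counts or fewer, and its level reached 3.33 CPM at most. By level the CR pair lay above the AL pair at ZT14 and ZT22, and below it at ZT2, ZT10 and ZT18. How many of all tested genes had as many gaps is not reported here.

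The sum of Fgf21 counts at ZT14 was 4 in AL and 104 in CR, a ratio of 12.1 after scaling (95% exact interval 4.57 to 45.1). At ZT22 the sums were 5 and 65, a ratio of 3.08 (1.25 to 9.80). The ratios were below 1 at ZT18 with 91 and 30 counts (0.179, 0.114 to 0.273), at ZT10 with 159 and 43 (0.271, 0.189 to 0.382) and at ZT6 with 139 and 38 (0.526, 0.358 to 0.758). At ZT2, with 58 and 17 counts, the interval spanned 1 (0.633, 0.346 to 1.10). These intervals cover counting error only. With the spread between libraries, edgeR's quasi-likelihood test gave 3.37 ± 1.25 at ZT14 (adjusted p = 0.210), 1.61 ± 1.21 at ZT22 (adjusted p = 0.554) and -2.92 ± 1.05 at ZT18 (adjusted p = 0.285), and the average over time was -0.25 ± 0.46 (adjusted p = 0.805). Exocrine pancreas, which also makes Fgf21, left markers in these livers. They summed to 11.7 to 90.2 CPM in AL (median 36.7) and 4.58 to 19.9 CPM in CR (median 13.2), with 6 of 7 detected and Amy2a5 at 0. The library highest in them was AL ZT6 1, which was also the highest in Fgf21, and their part in the Fgf21 values was not tested.

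Markers of other liver cells were summed as well, without a test between diets. Kupffer cell markers (8 of 8 detected) summed to 147 to 462 CPM in AL and 75.9 to 138 CPM in CR, without overlap. Stellate cell markers (6 of 6) summed to 75.1 to 308 CPM in AL (median 123). In CR they summed to 158 to 289 CPM (median 225), a range inside that of AL. Endothelial markers (6 of 6) summed to 59.3 to 135 CPM in AL and 58.1 to 134 CPM in CR. The part of these markers in the differences of the 8 genes was not tested. Without CR ZT6 2 and CR ZT18 2, and without AL ZT10 1 and AL ZT22 2C, the calls of Pdk4, Ehhadh and Acadl on the diet average were kept.

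Across the 12 group means of log2 CPM, Acadm and Acadl had the highest correlation of the 28 pairs (Pearson's r = 0.81), followed by Ehhadh with Acadl (0.64) and Ehhadh with Acadm (0.62). Cpt1a and Cpt2, which act in turn on the same fatty acid, had the lowest (-0.45). The group mean of Cpt1a was highest at ZT10 in both diets, where Cpt2 was at 116 CPM in AL and 125 CPM in CR, against 369 CPM in AL at ZT6 and 323 CPM in CR at ZT18, its highest. Among 5617 tested genes with a mean of at least 10 CPM, the pattern most like Pdk4 was that of Btg1 (r = 0.84), Ypel2 (0.79) and Btbd1 (0.78). For Cpt1a it was Cyth1 (0.94), Npc1 (0.93) and Abcg8 (0.91), for Cpt2 Eif3d (0.97), Rwdd1 (0.96) and Alkbh7 (0.96), and for Ehhadh Flot2 (0.95), Usp7 (0.90) and Uhrf1bp1l (0.85). For Acadl it was Aass (0.94), Ecm1 (0.94) and Trim24 (0.93), and for Acadm Nudt4 (0.89), Pkp4 (0.88) and Retsat (0.88). Vnn1 was matched less closely, by Ctnnd1 (0.76), Gna12 (0.75) and Paqr7 (0.74), and Fgf21 by Rdh14 (0.85), Acad8 (0.84) and Btf3l4 (0.83). The points of each correlation share their libraries and depth, so no p is given.

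Of 18 tested genes of mitochondrial β-oxidation, 3 were higher in CR and 0 lower, with a median of 0.16; over all tested genes 5.6% were higher and the median was -0.02. These were both subunits of the electron transfer flavoprotein, which takes electrons from Acadm and Acadl, with Etfb at 0.90 ± 0.21 (adjusted p = 0.00635 by edgeR) and Etfa at 0.50 ± 0.14 (adjusted p = 0.0220), and the acyl-CoA dehydrogenase Acad10 at 0.75 ± 0.16 (adjusted p = 0.00294). The call of Etfa was lost without AL ZT2 2 (0.0686), AL ZT18 2 (0.0513) or CR ZT18 1 (0.0534), in adjusted p by edgeR, and in 2 other alternatives. In the carnitine shuttle, 1 of 7 tested genes was called, the carnitine acetyltransferase Crat at 0.93 ± 0.19 (adjusted p = 0.00177 by edgeR), and the median was 0.25, or 0.12 without CR ZT6 2 and CR ZT18 2.

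Of 13 peroxisomal genes around Ehhadh, 1 was higher and 1 lower in CR, with a median of -0.04. Abcd2, a fatty acyl-CoA transporter of the peroxisomal membrane, was at 3.03 ± 1.70 CPM with AL and at 22.3 ± 15.4 CPM with CR (SD over 12 libraries each), a rise of 2.99 ± 0.24 (adjusted p = 1.79e-08 by edgeR). Scp2, the peroxisomal thiolase and sterol carrier, fell by 0.60 on the log2 scale (SE 0.16, adjusted p = 0.0159), a call lost without CR ZT22 1 (0.0539) and without a composition factor (0.0617). None of the 6 genes of ketone body synthesis and export was called (1 by DESeq2), and the median was 0.04. The values ran from -0.49 for Slc16a6 to 0.20 for the ketone exporter Slc16a1 among the genes described here, with Acat1 at 0.13 and Bdh1 at -0.04.

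Among PPARα and its partners, 4 of 10 genes were higher in CR and 0 lower, with a median of 0.21. They were the coactivators Ppargc1a (1.62 ± 0.22, adjusted p = 2.24e-05 by edgeR), Lpin1 (1.10 ± 0.25, adjusted p = 0.00609) and Ppargc1b (0.94 ± 0.23, adjusted p = 0.00772), and the corepressor Ncor1 (0.59 ± 0.16, adjusted p = 0.0160), whose call was lost without a composition factor (0.0599). The differences of Ppara itself (-0.04 ± 0.20), Rxra (0.11), Rxrb (0.31), Med1 (0.03) and Creb3l3 (-0.22) were not called. Rxrb was close to the threshold (adjusted p = 0.0663 by edgeR) and was called higher in 4 of 36 alternatives, among them DESeq2 (0.0131). Ppara was called rhythmic in CR with an amplitude of 1.10 and a peak at ZT 9.19 h (adjusted p = 0.0150 by edgeR), Ppargc1b with 1.44 at ZT 9.61 h (adjusted p = 0.0258) and Lpin1 with 2.04 at ZT 11.8 h (adjusted p = 0.00261). Of all tested genes, 1.94% were called rhythmic in CR, and how these 3 rhythm calls fare under the alternatives is not reported here. Ppara was widely spread in CR, at 30.4 ± 33.2 CPM against 25.8 ± 7.76 CPM in AL (SD over 12 libraries each). Its peak lay near that of Cpt1a in CR (ZT 9.45 h), whose call was lost in 10 of 35 alternatives. A link between the 2 genes was not tested.

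PPARα targets outside β-oxidation had the highest median of the 9 lists. Of 18 tested, 9 were higher and 1 lower in CR, with a median of 0.94, or 0.55 with 8 higher and 2 lower without CR ZT6 2 and CR ZT18 2. The smallest p-values were those of the acyl-CoA thioesterases Acot3 (4.60 ± 0.42, adjusted p = 8.73e-08 by edgeR), Acot4 (2.17 ± 0.21, adjusted p = 1.61e-07) and Acot2 (2.25 ± 0.28, adjusted p = 6.93e-06). The 1 lower gene, named after its value was seen, was the fatty acid binding protein Fabp1, which fell by 1.08 (SE 0.23, adjusted p = 0.00270). The acyl-CoA thioesterases are close relatives of each other, and whether reads fit more than 1 of them was not tested.

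Around Pdk4, 1 of 10 genes of the pyruvate dehydrogenase complex and its control was called, its sister kinase Pdk1 at 0.66 ± 0.14 (adjusted p = 0.00398 by edgeR), with a median of 0.34. Around Vnn1, 2 of 11 genes of pantetheinases and coenzyme A supply were higher and 1 lower, with a median of -0.03. The second pantetheinase Vnn3 was at 37.5 ± 12.5 CPM with AL and 76.5 ± 21.6 CPM with CR (1.03 ± 0.16, adjusted p = 0.000130 by edgeR). The coenzyme A hydrolase Nudt7 of peroxisomes, at 622 ± 301 CPM in AL and 82.3 ± 36.6 CPM in CR, fell by 2.89 on the log2 scale (SE 0.22, adjusted p = 7.49e-09), while Nudt19, also a peroxisomal coenzyme A hydrolase, rose by 0.50 ± 0.12 (adjusted p = 0.00627). Without a composition factor the calls of Nudt19 (adjusted p = 0.128 by edgeR) and Pdk1 (0.0522) were lost.

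Around Fgf21, 1 of 9 genes for FGF receptors and regulators was higher in CR and 2 lower, with a median of -0.04. Klb, the coreceptor β-klotho that FGF21 needs, was higher by 0.81 ± 0.22 (adjusted p = 0.0198 by edgeR). The FGF receptor genes Fgfr3 and Fgfr4 fell by 0.62 (SE 0.15, adjusted p = 0.00713) and 0.45 (SE 0.14, adjusted p = 0.0352), both by edgeR. Without AL ZT10 1 and AL ZT22 2C, 0 of the 9 were called higher and 1 lower. The call of Fgfr4 was lost in 21 of 36 alternatives, 15 of them among the 24 that leave out 1 library, with adjusted p up to 0.132 by edgeR. The lists were written with earlier results of these data known, and a count within one shows nothing particular to it.

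**Figure D4:**
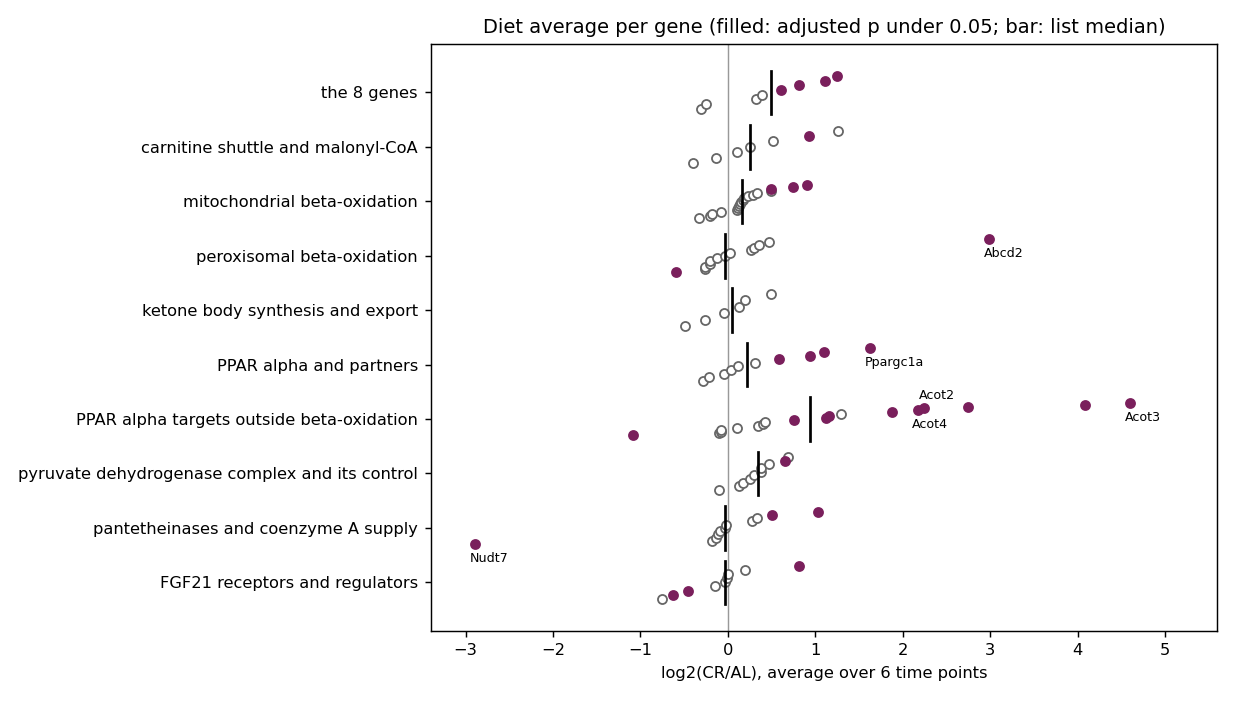
Log2 difference between diets averaged over 6 time points (horizontal axis, CR over AL) for each tested gene of the 8 and of 9 lists of related genes (rows), with filled points for an adjusted p under 0.05 by edgeR and bars at the list medians. PPARα targets outside β-oxidation reach furthest to the right with a median of 0.94, and Nudt7 lies furthest to the left at -2.89.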

How the data were processed

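The 24 files hold raw read counts per gene, deposited by the authors without normalization. Per the submitters' processing notes, FastQC, HTSeq, DESeq2 and the build GRCm38.p5 were used; the sources used here give no versions and no aligner. Per the labels' protocols, libraries were made from poly(A)-selected RNA and keep no strand, so reads of antisense genes are not told apart. The 8 genes and all lists were chosen with earlier results of these data known.

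Symbols came from GENCODE M21 for 52489 of 52636 identifiers. Counts were tested with edgeR 4.0.16 in R 4.3.3 (trimmed mean of M-values, TMM; filterByExpr with the 12 groups; quasi-likelihood tests; Benjamini-Hochberg over 15490 genes at 0.05). All 24 libraries entered 1 fit, so that groups of 2 share 1 estimate of spread. CPM values are scaled by TMM factors. Likeness used log2 CPM with a prior count of 2. Alternatives were DESeq2 1.42.0, limma-trend 3.58.1, other scalings and filters, ribosomal RNA features left out or as a covariate, an additive model, 2 pairs of libraries left out, a block for the replicate number, and each library left out in turn. Named related genes are up to 3 called genes of smallest p per list, and the PPARα and ketone lists, of which some genes are not reported here. The fits were tried on simulated counts with planted changes and the same dispersion setting for all genes, which real libraries need not share. The outcome is not reported here. Depth was 13.8 to 60.8 M counts per library. Within a group, libraries differed by far more than counting noise (chi-square per degree of freedom 99.7 to 2219), so none looked like 1 library deposited in duplicate; whether they come from separate animals this does not show.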

Additional observations from a re-analysis of the deposited data

How the results depend on the processing

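Of 3077 values of the 8 genes under alternatives (88 results), 2990 kept direction and side of the threshold, 34 lost a call, 26 gained one and 27 changed sign, none of which was called before or after. On the diet average, Pdk4, Ehhadh and Acadl were called in all 36 alternatives. The calls there numbered 4, or 3 to 4 with 1 library left out, and the 1 rhythm call in AL was kept throughout. At single time points the 2 calls became 5 without a composition factor, 7 without a low-count filter, 1 without AL ZT10 1 and AL ZT22 2C, and 1 to 3 with 1 library left out. Leaving out the composition factor also moved the median of all genes, to -0.80 at ZT2 and 0.91 at ZT22, so the differences added there (Cpt2, Ehhadh, Acadl and Pdk4 at ZT22) are to be read against that shift. For the interaction, 0 became 1 with DESeq2 (Pdk4), 2 without a low-count filter, and 0 to 1 with 1 library left out. For rhythms in CR, 1 became 3 with DESeq2, 0 with limma-trend, 0 without a composition factor, 3 without a low-count filter, 0 without CR ZT6 2 and CR ZT18 2, and 0 to 2 with 1 library left out. For the rhythm difference, 0 became 1 with DESeq2 and 1 without a low-count filter. Calls over all tested genes also rose in these settings, for the interaction, the rhythms in CR and the rhythm difference. For rhythms in CR they fell with limma-trend, without a composition factor and without CR ZT6 2 and CR ZT18 2. The gains and losses among the 8 genes are to be read against these shifts. The causes of these changes were not tested. Of 32 related genes, 9 changed side of the threshold in at least 1 alternative and 5 uncalled ones changed sign. Fgf21 was not tested under the filter of 1 CPM in 12 libraries.

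The replicate block lowered the diet average from 4 calls to 3 by ending that of Acadm (adjusted p = 0.0531 by edgeR) and changed no other call of the 8 genes. No pairing of libraries by number was seen, and the labels do not say what the numbers mark. Deviations of same-numbered AL and CR libraries correlated at -0.05, -0.03, 0.20, 0.03 and -0.05 at ZT2 to ZT18. All pairs of groups ran from -0.25 to 0.51, so a weak effect shared by number could go unseen. Both AL libraries at ZT22 carry the number 2. With 1 library left out, the lone library of its group is assumed to vary like the others. Uncalled differences changed sign as follows. Not all were near 0 in the main fit, as with Fgf21 at ZT6 (-0.81 ± 0.99) and Acadm at ZT10 (0.52 ± 0.48). Without a composition factor Cpt1a became 0.81 at ZT22, Cpt2 -0.66 at ZT2 and -0.12 at ZT10, Vnn1 0.057 at ZT14, 0.061 at ZT18 and 0.89 at ZT22, and the average of Med1 -0.016. Cpt1a at ZT22 was 0.11 with the ribosomal RNA covariate, Vnn1 at ZT22 was 0.32 with limma-trend and 0.016 with the replicate block, and the average of Bdh1 was 0.0024 with limma-trend. Without CR ZT6 2 and CR ZT18 2 the averages of Slc16a1, Rxra and Med1 were -0.0098, -0.040 and -0.028. With 1 library left out, Cpt1a ran from -0.30 to 0.85 at ZT18 and from -0.24 to 0.0016 at ZT22, and Cpt2 from -0.058 to 0.31 at ZT2, -1.40 to 0.19 at ZT6 and -0.19 to 0.33 at ZT10. Acadm ran from -0.20 to 0.98 at ZT10 and -0.21 to 0.71 at ZT18. Vnn1 ran from -2.09 to 0.48 at ZT10, -0.92 to 0.22 at ZT14, -1.26 to 0.76 at ZT18 and -0.95 to 1.65 at ZT22. Fgf21 ran from -4.71 to 0.16 at ZT6 and from -0.90 to 0.0053 on average. The averages of Bdh1 (-0.15 to 0.13), Slc16a1 (-0.046 to 0.31), Ppara (-0.27 to 0.066) and Med1 (-0.11 to 0.12) changed sign likewise. Depth limits Fgf21 and, at its lowest with 12 counts, Pdk4.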
